A study of Mus musculus with 16 samples.

Results

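The patellar tendon, which joins the kneecap to the shin, was compared with the flexor tendon of the forepaw, which bends the digits. RNA from both had been sequenced in inbred C57BL/6J mice. The libraries were chosen by their labelled tendon, 4 Patellar and 4 Flexor libraries of the 16 in the series, numbered as mice 1 to 4. The other 8 libraries, of Achilles and Supraspinatus tendon, are used here only to set a level beside these. The labels name no treatment or altered allele in any group, and the sources used here give neither age nor sex nor the dissected stretch of tendon. The stated design asked which mRNAs differ between every pair of tendons. The labels do not say whether equal numbers mark the same animal, so p-values measure the spread between libraries labelled as different mice.

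Tendon is a dense tissue of parallel type I collagen fibrils laid down by tenocytes, whose identity depends on the transcription factors Scleraxis (Scx) and Mohawk (Mkx). Connective tissue cells of the limb keep a record of where they arose. Tbx5 marks forelimb cells and Pitx1 and Tbx4 hindlimb cells, while the Hox genes are used in overlapping sets along the body and from shoulder or hip to the digits. A dissected tendon also carries muscle from its junction, fat, nerve, vessels and sheath. In bulk RNA, fewer cells of a type and less RNA per cell cannot be told apart.

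Flexor libraries held 97242489 to 106573353 counts, and Patellar libraries 34559686 to 63235636. Genes with rRNA-like sequence took 1.86% to 2.48% of Flexor counts and 13.2% to 42.0% of Patellar counts. Between 30577 and 31570 genes were detected in Flexor libraries and between 23499 and 29270 in Patellar libraries. Log2 CPM (read counts per unit of library size, CPM, scaled by TMM so that the typical gene is equal) correlated across genes with Pearson r of 0.984 to 0.990 within Flexor, 0.899 to 0.949 within Patellar and 0.830 to 0.880 between them (across genes, which are no independent replicates). The first principal component, with 61.0% of the variance, separated the tendons. Patellar replicate 3, the shallowest library, stood apart on the second, with 18.7%. Counts for most gene lists are therefore also given without that library. Depth, rRNA-like share and tendon moved together, and their parts in the results below were not tested beyond the settings named.

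Patellar and flexor tendon differed in 9086 of 21463 genes tested, with 4480 higher and 4606 lower in Patellar (edgeR's quasi-likelihood test, Benjamini-Hochberg adjusted p under 0.05). The background for every list below is therefore 42.3% of genes called, 20.9% higher and 21.5% lower. Without Patellar replicate 3 it was 22.7% higher and 23.8% lower, 46.5% in all. The median log2 fold change over all genes tested was -5.35e-05. Changes of more than 4-fold were found in 1419 genes that were higher and 1550 that were lower. All Patellar libraries lay above all Flexor libraries in 4124 of the 21463 genes tested, and below them in 5242. Libraries that do not overlap were therefore common. They were also required of the genes named for the size of their change, so for those genes this is no separate result. Among the genes of the authors' deposited table, 8228 differ between these tendons, of which 6760 were also called here, all 6760 in the same direction. Muscle RNA differed widely between the tendons, so genes were also fitted with the mean level of muscle markers as a covariate. Acta1, Myh1, Myh2, Myh4, Atp2a1 and the other muscle markers are part of that mean, so this fit cannot test them. That covariate itself separates the tendons without overlap (9.44 to 10.2 log2 CPM in Flexor, 2.70 to 6.72 in Patellar), and with it 5.51% of genes were called higher and 5.21% lower, 10.7% in all. The part of muscle in a call lost under it cannot be told apart from tendon. All fold changes are Patellar over Flexor on the log2 scale, and CPM values are listed for replicates 1 to 4 of each tendon. Of the named genes Ache, Adrb3, Agbl1, Alpk2, Aspn, Atp2a1, Atp2a2, Col6a6, Emx2, Fgf14, Gpi1, Hand2, Has2, Hoxa11, Igfbp7, Jund, Krt75, Mab21l2, Mt2, Myh1, Myh2, Myh7, Nos1, Nr1d1, Pdgfra, Piezo1, Pitx1, Prg4, Prtn3, Psmb8, Pth1r, Sfrp2, Shox2, Tgfb2, Tgfb3, Zic1 and Zic4 overlap an annotated gene on the opposite strand, and Col3a1, Hoxa9, Hoxc10, Hoxc5, Hoxd10, Hoxd11, Mkx, Pdgfra, Pitx1 and Spp1 one on the same strand, so reads of the overlapping genes may not be told apart.

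**Figure D1:**
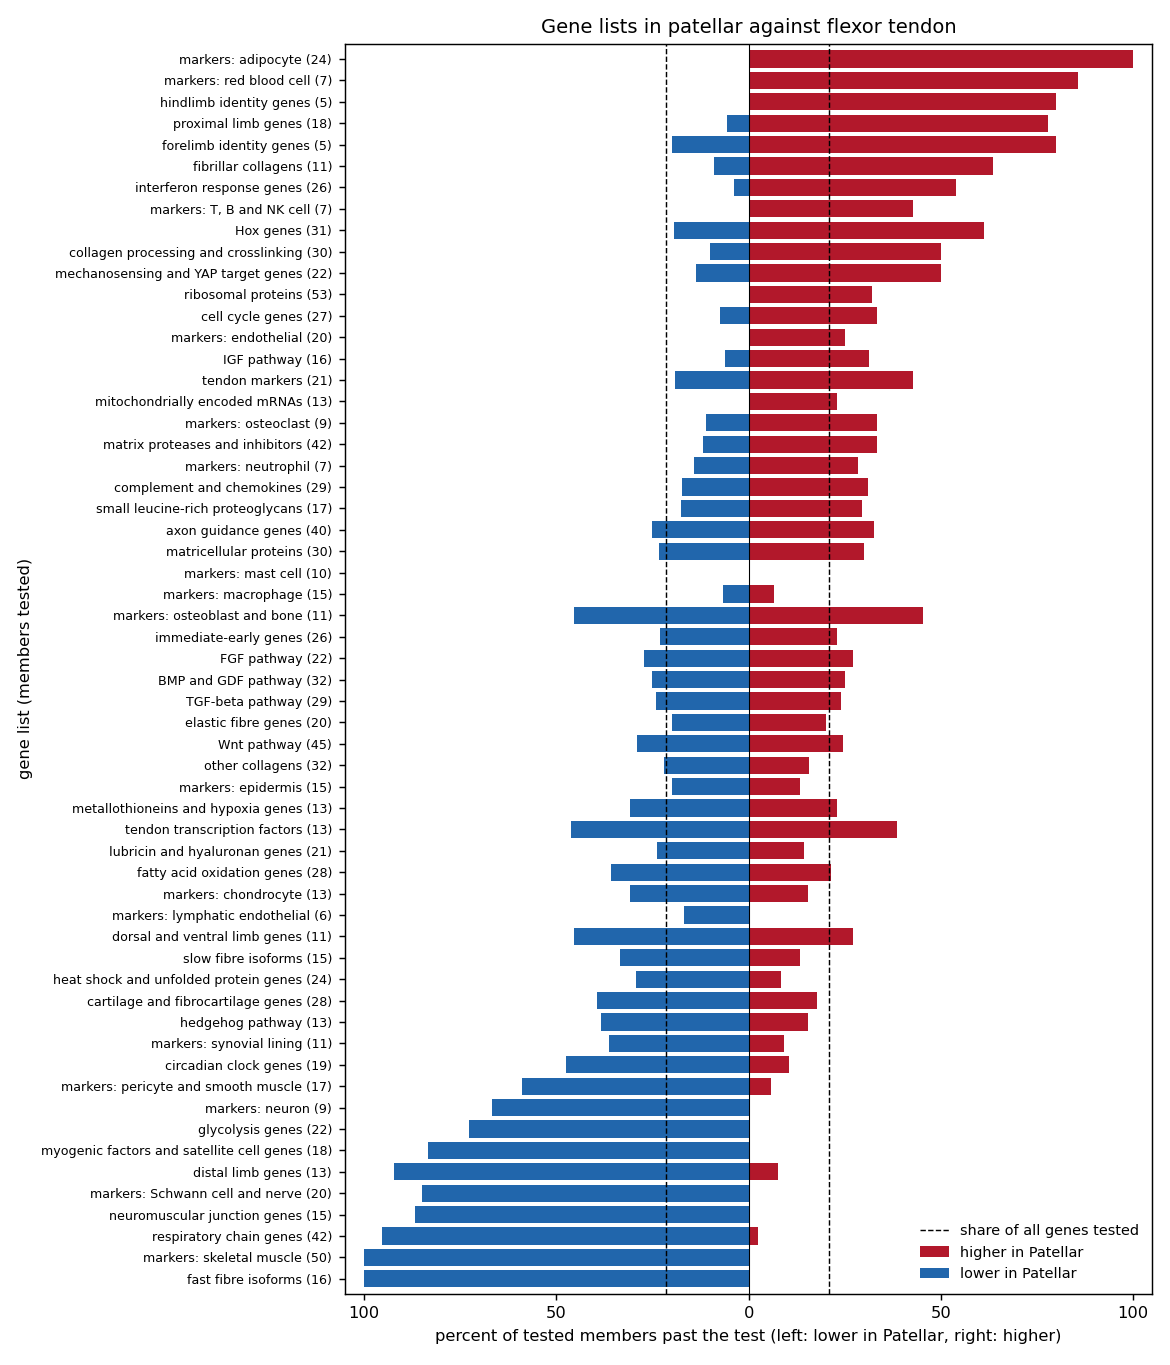
Percent of tested members of each gene list that were higher (right, red) or lower (left, blue) in Patellar than in Flexor by edgeR, with the number of members tested after each name. Dashed lines mark the share of all genes tested. Adipocyte markers were higher and fast fibre isoforms and skeletal muscle markers lower in all of their tested members.

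Genes that record limb position differed widely between the tendons. Pitx1 (ENSMUSG00000021506, chr13:55825051-55836192 on GRCm38), the hindlimb factor that turns on Tbx4, stood at 79.5, 45.8, 51.1 and 72.0 CPM in Patellar and 0.165, 0.211, 0.179 and 0.354 CPM in Flexor (log2 fold change 8.08 ± 0.34 SE, adjusted p = 2.52e-06). The libraries of the tendons lay far apart. Tbx5 (ENSMUSG00000018263, chr5:119832668-119885219), which is required for forelimb outgrowth, went the other way with 8.91, 6.61, 8.48 and 8.09 CPM in Patellar and 45.5, 53.9, 47.4 and 56.9 CPM in Flexor (log2 fold change -2.67 ± 0.15 SE, adjusted p = 9.19e-06). Tbx5 was lower in every Patellar library than in any Flexor library, and it was not near 0 in Patellar. Over the scaling of all 16 libraries it stood at 0.315 ± 0.151 CPM (SD, n = 4) in Achilles, the other hindlimb tendon, and at 20.3 ± 2.45 CPM in Supraspinatus, the other forelimb tendon. Pitx1 stood there at 19.3 ± 8.27 CPM in Achilles and 12.4 ± 1.87 CPM in Supraspinatus, so the forelimb Supraspinatus was not near 0 as Flexor was. Tbx4, the T-box factor of the hindlimb bud, was not called, with 20.2, 21.0, 9.36 and 27.0 CPM in Patellar and 21.9, 22.7, 19.1 and 23.5 CPM in Flexor (log2 fold change -0.17 ± 0.27 SE, adjusted p = 0.657).

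Hoxc genes led the named genes that were higher in Patellar. Hoxc8 (ENSMUSG00000001657, chr15:102990607-102994111) stood at 30.2, 28.1, 40.0 and 37.5 CPM in Patellar and 0.0291, 0.0100, 0.0179 and 0.0354 CPM in Flexor (log2 fold change 10.41 ± 0.32 SE, adjusted p = 7.99e-07). Hoxc9 stood at 33.7, 16.4, 34.0 and 39.5 CPM in Patellar and 0.00969, 0.0401, 0.00894 and 0.0265 CPM in Flexor (log2 fold change 10.41 ± 0.48 SE, adjusted p = 5.08e-06). Hoxc10 (ENSMUSG00000022484, chr15:102966796-102971893), used in the hindlimb bud, stood at 34.98, 24.1, 20.1 and 29.2 CPM in Patellar and 0.0484, 0.0201, 0.0537 and 0.0442 CPM in Flexor (log2 fold change 9.28 ± 0.34 SE, adjusted p = 1.48e-06). All 3 genes were near 0 in every Flexor library and well counted in every Patellar library. Hoxc4, Hoxc5 and Hoxc6, which had been listed as forelimb genes from their use in the embryo, were also higher in Patellar, by 7.26 ± 0.59, 7.39 ± 0.40 and 8.26 ± 0.30. Of the 5 forelimb genes tested, 4 were thus higher in Patellar and Tbx5 alone was lower, and of the 5 hindlimb genes 4 were higher and Tbx4 was not called. Both counts were the same without Patellar replicate 3. Hoxc5 and Hoxc10 share annotated exons on the same strand, so their counts may not be independent.

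Hox genes of the digit end went the other way. Hoxd11 stood at 0.0469, 0.0132, 0.0707 and 0.192 CPM in Patellar and 15.6, 17.8, 15.8 and 19.5 CPM in Flexor (log2 fold change -7.90 ± 0.53 SE, adjusted p = 1.34e-05). Hoxa13 (ENSMUSG00000038203, chr6:52257694-52260880), which with Hoxd13 patterns the wrist, ankle and digits, stood at 0.0704, 0.119, 0.0353 and 0.0274 CPM in Patellar and 5.84, 5.96, 6.75 and 7.18 CPM in Flexor (log2 fold change -6.47 ± 0.43 SE, adjusted p = 1.25e-05). Hoxd13 had 0, 0, 0.0353 and 0.0274 CPM in Patellar, from 2 counts in all, against 7.30, 9.32, 8.06 and 10.1 CPM in Flexor. No Patellar library came near a Flexor library in any of these 3. Sall1, a zinc finger gene of digit development, had 0 counts in 4 Patellar libraries, which allows a level of up to 0.0164 CPM, and 1112 counts in Flexor, at least 158-fold lower in Patellar. Evx2, the neighbour of the Hoxd cluster, also had 0 Patellar counts, against 428 in Flexor, at least 60.9-fold lower. Of the 13 distal limb genes, 12 were lower in Patellar and 1 was higher, with a median of -5.26 (1 and 12 higher and lower without Patellar replicate 3). The exception was Lhx9, a LIM homeodomain gene of the limb bud mesenchyme, at 16.3, 13.1, 14.6 and 26.0 CPM in Patellar and 0.320, 0.983, 0.215 and 0.301 CPM in Flexor (log2 fold change 5.27 ± 0.53 SE, adjusted p = 9.08e-05).

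Genes of the upper limb were mostly higher in Patellar. Of the 18 proximal limb genes, 14 were higher and 1 lower, with a median of 0.92 (14 and 2 without Patellar replicate 3). Shox2 (ENSMUSG00000027833, chr3:66971727-66981771), needed for the humerus and femur, stood at 25.3, 27.6, 29.7 and 35.7 CPM in Patellar and 0.775, 0.542, 0.805 and 0.513 CPM in Flexor (log2 fold change 5.48 ± 0.24 SE, adjusted p = 3.32e-06). Meis2, a homeodomain factor of the proximal limb, stood at 3.82, 7.72, 4.52 and 6.17 CPM in Patellar and 0.601, 0.241, 0.662 and 0.283 CPM in Flexor (log2 fold change 3.63 ± 0.44 SE, adjusted p = 2.40e-04), and Hoxa9 at 43.2, 42.4, 59.6 and 61.6 CPM in Patellar and 13.7, 14.8, 17.3 and 18.6 CPM in Flexor (log2 fold change 1.68 ± 0.18 SE, adjusted p = 1.12e-04). Emx2, a homeobox gene of the shoulder girdle, was higher by 3.35 ± 0.38. Patellar and Flexor libraries did not overlap in these 4 genes. Tbx15, a T-box gene of the early limb skeleton, was the exception, at 64.6, 58.1, 47.6 and 66.8 CPM in Patellar and 326, 280.2, 255 and 231 CPM in Flexor (log2 fold change -2.20 ± 0.16 SE, adjusted p = 2.02e-05). Over the Hox genes as a whole, 19 of 31 tested were higher and 6 lower in Patellar (22 and 6 without Patellar replicate 3). The 6 lower genes were Hoxa11, Hoxa13, Hoxd10, Hoxd11, Hoxd12 and Hoxd13. Meis2, Hoxa9 and Emx2 were not called with muscle as covariate.

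Genes of the back-to-palm axis were mixed, with 3 of 11 higher and 5 lower (3 and 5 without Patellar replicate 3). Lmx1b, which makes limb mesenchyme dorsal and whose loss in people leaves the kneecap small or missing, stood at 7.11, 3.996, 2.37 and 3.62 CPM in Patellar and 0.0291, 0.110, 0.0358 and 0.0884 CPM in Flexor (log2 fold change 5.99 ± 0.58 SE, adjusted p = 7.48e-05). Hand2, an early factor of the limb's posterior edge, stood at 0.0704, 0.0132, 0.106 and 0.0822 CPM in Patellar and 4.49, 5.84, 5.23 and 8.24 CPM in Flexor (log2 fold change -6.60 ± 0.53 SE, adjusted p = 3.33e-05). Zic1 stood at 0.0235, 0.0264, 0.0707 and 0.0822 CPM in Patellar and 2.46, 2.11, 1.78 and 1.69 CPM in Flexor (log2 fold change -5.38 ± 0.51 SE, adjusted p = 6.52e-05), and Zic4, which overlaps it on the opposite strand, had 0 Patellar counts against 332 in Flexor, at least 47.8-fold lower. The Lmx1b and Hand2 libraries did not overlap between tendons. Gsc, a homeobox gene that no list held, stood at 14.03, 10.4, 12.2 and 11.5 CPM in Patellar and 0.426, 0.291, 0.268 and 0.230 CPM in Flexor (log2 fold change 5.30 ± 0.29 SE, adjusted p = 7.88e-06), and Mab21l2, of the fixed panel, at 38.1, 31.1, 37.2 and 50.1 CPM in Patellar and 3.24, 4.39, 3.40 and 3.94 CPM in Flexor (log2 fold change 3.39 ± 0.20 SE, adjusted p = 9.67e-06). Zic1 was not called with muscle as covariate.

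**Figure D2:**
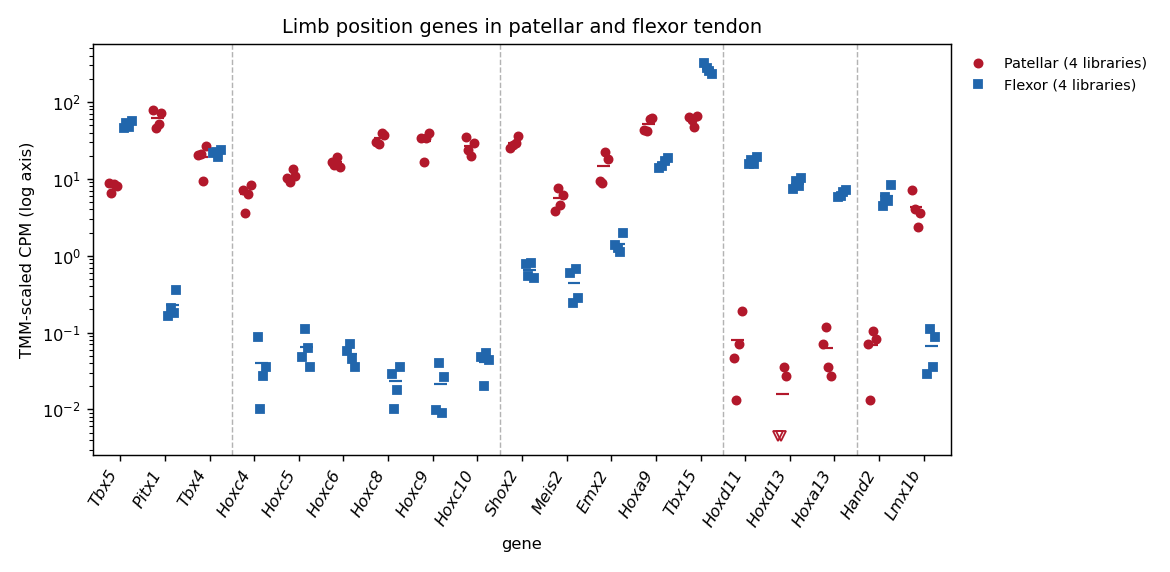
TMM-scaled CPM (log axis) of limb position genes in 4 Patellar (red circles) and 4 Flexor (blue squares) libraries, with a bar at each mean and open triangles for libraries with 0 counts. Dashed lines separate limb identity, Hoxc, proximal, distal and other genes. Hoxc4 to Hoxc10 lie above Flexor in every Patellar library, and Hoxd11, Hoxd13 and Hoxa13 below it, while Tbx4 overlaps.

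Among tendon transcription factors, Scx (ENSMUSG00000034161, chr15:76457452-76459458), which specifies tendon progenitors, stood at 131, 87.4, 90.2 and 109 CPM in Patellar and 6.10, 4.71, 3.50 and 5.35 CPM in Flexor (log2 fold change 4.41 ± 0.23 SE, adjusted p = 7.88e-06). The lowest Patellar library, at 87.4 CPM, was far above the highest Flexor library, at 6.10 CPM. Mkx, which drives type I collagen genes in the maturing tendon, was also higher, at 113, 66.9, 86.4 and 111 CPM in Patellar and 34.8, 40.1, 34.8 and 45.5 CPM in Flexor (log2 fold change 1.28 ± 0.19 SE, adjusted p = 6.21e-04). The eyes-absent genes split. Eya2 stood at 28.5, 12.3, 24.4 and 54.1 CPM in Patellar and 4.10, 1.71, 2.26 and 1.35 CPM in Flexor (log2 fold change 3.66 ± 0.51 SE, adjusted p = 4.91e-04), and Eya1 at 1.92, 2.53, 2.37 and 3.43 CPM in Patellar and 27.0, 28.9, 31.0 and 25.4 CPM in Flexor (log2 fold change -3.45 ± 0.21 SE, adjusted p = 1.10e-05). Egr1, a load-responsive factor upstream of tendon collagen, overlapped, at 60.4, 64.5, 102 and 51.1 CPM in Patellar and 67.1, 94.9, 63.7 and 51.0 CPM in Flexor (log2 fold change 0.01 ± 0.25 SE, adjusted p = 0.982). In all, 5 of 13 factors were higher and 6 lower, with a median of -0.17 (5 and 6 without Patellar replicate 3). In the fit with the muscle covariate the counts were 4 and 1, and Scx stood at 5.21 (adjusted p = 4.81e-04, edgeR) and Mkx at 2.12 (adjusted p = 0.0111).

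Of 21 tendon markers, 9 were higher and 4 lower in Patellar, with a median of 0.58 (9 and 5 without Patellar replicate 3). Tnmd (ENSMUSG00000031250, chrX:133850980-133865577), the membrane protein that marks mature tenocytes, stood at 406, 362, 218 and 315 CPM in Patellar and 114, 97.0, 121 and 85.2 CPM in Flexor (log2 fold change 1.64 ± 0.21 SE, adjusted p = 2.86e-04). Kera, the keratan sulfate proteoglycan keratocan, stood at 341, 355, 227 and 379 CPM in Patellar and 38.2, 19.3, 35.2 and 23.6 CPM in Flexor (log2 fold change 3.48 ± 0.27 SE, adjusted p = 2.65e-05). Cilp2, a matrix protein first known from cartilage, stood at 1277, 1035, 873 and 1208 CPM in Patellar and 163, 127, 86.8 and 107.8 CPM in Flexor (log2 fold change 3.18 ± 0.23 SE, adjusted p = 1.97e-05). Patellar libraries lay above Flexor libraries in all 3. Ptx4, a pentraxin, was higher by 2.52 ± 0.24, Thbs4, which organises tendon collagen fibrils, by 1.195 ± 0.28, and Fmod, the fibril-binding proteoglycan fibromodulin, by 0.83 ± 0.23 (adjusted p = 0.017, and not called without Flexor replicate 2 or 4, at 0.80 and 0.74). Cilp stood at 744, 803, 451 and 444 CPM in Patellar and 1687, 2164, 1527 and 2500.2 CPM in Flexor (log2 fold change -1.69 ± 0.26 SE, adjusted p = 8.72e-04), the opposite direction to Cilp2. Chad, the cell-binding protein chondroadherin, was lower by a log2 fold change of -0.91 ± 0.25, and Pdgfra, the growth factor receptor of sheath and other fibroblasts, by -1.75 ± 0.19. Comp, which binds collagen fibrils, was not called (log2 fold change -0.76 ± 0.30 SE, adjusted p = 0.0637), except without Patellar replicate 1. Thbs4, Fmod, Cilp and Chad were not called with muscle as covariate.

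Coch, which encodes the secreted matrix protein cochlin, had the largest fall of the genes with a mean of at least 10 CPM that the naming rule covers. Coch (ENSMUSG00000020953, chr12:51593341-51605771) stood at 9.06, 10.2, 10.7 and 5.87 CPM in Patellar and 3774, 3650.1, 4552 and 6438 CPM in Flexor (log2 fold change -9.004 ± 0.36 SE, adjusted p = 1.88e-06). No Patellar library came near a Flexor library, although the rule that named Coch had required that they not overlap. Over the 16-library scaling Coch stood at 75.8 ± 42.6 CPM in Achilles and 27.8 ± 17.9 CPM in Supraspinatus. Under the muscle covariate its log2 fold change was -9.66 (adjusted p = 8.61e-04, edgeR).

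The fibrillar collagens were mostly higher in Patellar, 7 of 11 against 1 lower, with a median of 1.07 (6 and 1 without Patellar replicate 3). Without Flexor replicate 2 only 4 were called higher. Col1a1 (ENSMUSG00000001506, chr11:94936224-94953042), a chain of the main tendon collagen, stood at 20815, 19089, 12017 and 13661 CPM in Patellar and 5466, 4374, 5324 and 3427 CPM in Flexor (log2 fold change 1.82 ± 0.26 SE, adjusted p = 6.19e-04). Its partner chain Col1a2 stood at 20228, 19153, 11531 and 14193 CPM in Patellar and 5286, 4208, 5243 and 3563 CPM in Flexor (log2 fold change 1.83 ± 0.26 SE, adjusted p = 5.18e-04). The chains of type XI collagen, which sits inside fibrils and limits their width, were also higher. Col11a1 stood at 491, 246, 261 and 348 CPM in Patellar and 53.4, 56.3, 57.4 and 58.4 CPM in Flexor (log2 fold change 2.58 ± 0.22 SE, adjusted p = 4.44e-05), and Col11a2 at 266, 217, 293 and 329 CPM in Patellar and 41.7, 26.8, 26.9 and 27.0 CPM in Flexor (log2 fold change 3.17 ± 0.21 SE, adjusted p = 1.25e-05). Libraries did not overlap in these 4 genes. Col3a1, of the thin fibrils of young and healing tendon, was not called, at 9163, 7713, 4403 and 5941 CPM in Patellar and 4457, 4618, 6581 and 3164 CPM in Flexor (log2 fold change 0.53 ± 0.29 SE, adjusted p = 0.173).

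Genes that process and crosslink collagen were higher in 15 of 30 and lower in 3, with a median of 0.80 (18 and 3 without Patellar replicate 3; 9 and 0 with muscle as covariate). Bmp1, the protease that cuts the C-propeptide of procollagen, stood at 219, 153, 164 and 276 CPM in Patellar and 32.3, 30.0, 32.2 and 24.7 CPM in Flexor (log2 fold change 2.77 ± 0.21 SE, adjusted p = 2.48e-05). Crtap, a subunit of the complex that hydroxylates prolines of type I collagen, stood at 59.2, 75.9, 79.8 and 84.4 CPM in Patellar and 15.6, 13.2, 11.03 and 13.2 CPM in Flexor (log2 fold change 2.50 ± 0.16 SE, adjusted p = 1.25e-05). Its relatives P3h3 and P3h4 were higher by 2.38 ± 0.21 and 1.72 ± 0.16. Bmp1 and Crtap libraries did not overlap between tendons. Adamts2 and Adamts3, which cut the N-propeptide and were named after their values were seen, were higher by 2.09 ± 0.21 and 2.60 ± 0.30.

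Other matrix lists were less one-sided. Of 32 other collagens, 5 were higher and 7 lower (9 and 8 without Patellar replicate 3). Col9a1, of the cartilage collagen IX, stood at 0, 0.0528, 0.247 and 0.0548 CPM in Patellar and 22.5, 13.6, 16.1 and 20.04 CPM in Flexor (log2 fold change -7.88 ± 0.62 SE, adjusted p = 3.04e-05), and Col6a6, a type VI chain, at 7.41, 16.4, 16.96 and 5.32 CPM in Patellar and 0.213, 0.0502, 0.277 and 0.0884 CPM in Flexor (log2 fold change 6.17 ± 0.65 SE, adjusted p = 1.09e-04), so both were near 0 in 1 tendon. Of 17 small leucine-rich proteoglycans, 5 were higher and 3 lower (7 and 3 without Patellar replicate 3, and 3 higher without Flexor replicate 2 or 4). Ogn was higher by 1.87 ± 0.23 and Aspn lower by a log2 fold change of -2.03 ± 0.40. Of 30 matricellular proteins, which act on cells from the matrix, 9 were higher and 7 lower (10 and 7 without Patellar replicate 3). Nov, a CCN family protein, stood at 84.1, 79.3, 54.2 and 50.3 CPM in Patellar and 923, 794, 967 and 559.9 CPM in Flexor (log2 fold change -3.60 ± 0.25 SE, adjusted p = 1.67e-05), and Spp1, the osteopontin gene, at 184, 89.3, 59.7 and 47.0 CPM in Patellar and 636, 1191, 791 and 1365 CPM in Flexor (log2 fold change -3.39 ± 0.46 SE, adjusted p = 4.29e-04). Libraries did not overlap in either gene. Ogn and Spp1 were not called with muscle as covariate.

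Of 42 matrix proteases and their inhibitors, 14 were higher and 5 lower, with a median of 0.65 (18 and 5 without Patellar replicate 3, and 3 lower without Flexor replicate 1). Timp2, an inhibitor of matrix metalloproteinases, stood at 1015, 1069, 1014 and 1759 CPM in Patellar and 227, 224, 197 and 195 CPM in Flexor (log2 fold change 2.53 ± 0.21 SE, adjusted p = 4.10e-05). Mmp23, a membrane-bound metalloproteinase, was higher by 2.73 ± 0.16, and Mmp3, the stromelysin, by 1.79 ± 0.32. Elastic fibre genes were called as often in each direction, 4 and 4 of 20 (5 and 6 without Patellar replicate 3, and 2 lower without Flexor replicate 1, Flexor replicate 2, Patellar replicate 1 or Patellar replicate 4). Mfap2, a microfibril protein, was higher by 2.10 ± 0.26. Of 21 lubricin and hyaluronan genes 3 were higher and 5 lower (5 and 6 without Patellar replicate 3). Has2, a hyaluronan synthase, was lower by a log2 fold change of -1.52 ± 0.36. Prg4, which encodes lubricin, stood at 2105, 1357, 1329 and 1309 CPM in Patellar and 1755, 2389.7, 2157 and 2325 CPM in Flexor (log2 fold change -0.50 ± 0.21 SE, adjusted p = 0.0779), and it was called lower only without Patellar replicate 1, its highest Patellar library. Mmp3, Mfap2 and Has2 were not called with muscle as covariate.

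Cartilage and fibrocartilage genes were lower in 11 of 28 and higher in 5 (5 and 10 without Patellar replicate 3). The higher genes included Col11a1 and Col11a2, given above, and Pth1r, a parathyroid hormone receptor, at 66.7, 54.6, 57.5 and 53.9 CPM in Patellar and 13.9, 9.16, 7.40 and 16.4 CPM in Flexor (log2 fold change 2.31 ± 0.25 SE, adjusted p = 1.26e-04). The lower genes included Col9a1 and Chad, both given above, with Col9a1 at -7.88 ± 0.62. The cartilage genes Sox9, Col2a1 and Acan were not called. Sox9 stood at -0.43 ± 0.42, Col2a1 at -0.34 ± 0.61 and Acan at 1.12 ± 0.78. Sox9 was called lower without Patellar replicate 1, at -0.97, and Col2a1 without Patellar replicate 2, at -1.32. Ibsp, a bone sialoprotein gene, stood at 38.7, 27.7, 23.9 and 13.5 CPM in Patellar and 3.22, 4.08, 1.69 and 7.51 CPM in Flexor (log2 fold change 2.65 ± 0.47 SE, adjusted p = 0.00164). Ibsp was not called with muscle as covariate.

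**Figure D3:**
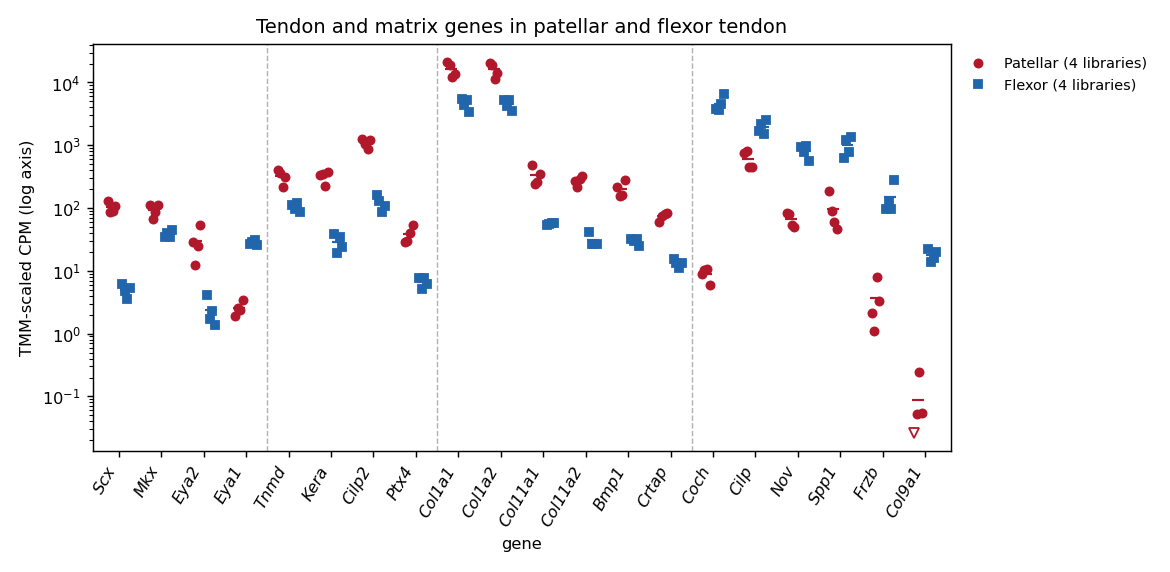
TMM-scaled CPM (log axis) of tendon and matrix genes in 4 Patellar (red circles) and 4 Flexor (blue squares) libraries, with a bar at each mean and open triangles for libraries with 0 counts. Dashed lines separate transcription factors, tendon markers, collagen genes and genes lower in Patellar. Scx, Kera, Cilp2 and the collagen genes lie higher in Patellar, and Coch, Cilp, Nov, Spp1, Frzb and Col9a1 lower.

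Signalling pathways held genes called in both directions. Of 45 Wnt pathway genes 11 were higher and 13 lower (10 and 16 without Patellar replicate 3, 7 higher without Flexor replicate 2, 8 lower without Flexor replicate 1 or 4). The secreted Wnt antagonists split. Sfrp2 stood at 10.51, 124, 89.7 and 28.8 CPM in Patellar and 0.436, 0.281, 0.742 and 0.248 CPM in Flexor (log2 fold change 7.21 ± 0.86 SE, adjusted p = 2.17e-04), and Dkk2 was higher by 1.69 ± 0.21. Frzb stood at 2.13, 1.11, 7.99 and 3.29 CPM in Patellar and 97.9, 126, 96.7 and 279 CPM in Flexor (log2 fold change -5.40 ± 0.67 SE, adjusted p = 2.60e-04), and Wif1 at 29.4, 39.4, 23.6 and 19.7 CPM in Patellar and 166, 139, 216 and 123 CPM in Flexor (log2 fold change -2.52 ± 0.25 SE, adjusted p = 9.08e-05). Sfrp2 was below 1 CPM in every Flexor library, and the libraries of Sfrp2, Frzb and Wif1 did not overlap. Sfrp2 and Dkk2 were not called with muscle as covariate.

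Of 32 BMP and GDF genes 8 were higher and 8 lower (10 and 10 without Patellar replicate 3). The BMP antagonist Grem1, used in the distal limb bud, stood at 0.328, 0.0791, 0.106 and 0.110 CPM in Patellar and 17.2, 13.9, 8.46 and 114 CPM in Flexor (log2 fold change -7.97 ± 1.10 SE, adjusted p = 4.78e-04). Flexor replicate 4 was far above the other Flexor libraries, and the lowest of those was still above every Patellar library. Chrdl1, another BMP antagonist, was higher by 1.65 ± 0.21. Of 29 TGF-beta genes 7 were higher and 7 lower (6 and 7 without Patellar replicate 3). The ligand Tgfb3 stood at 404, 276, 280.5 and 507 CPM in Patellar and 179, 145, 155 and 157 CPM in Flexor (log2 fold change 1.21 ± 0.21 SE, adjusted p = 0.00144), while Tgfb2 was not called (log2 fold change 0.35 ± 0.24 SE, adjusted p = 0.28). Mstn, the muscle growth inhibitor myostatin, stood at 0.868, 0.488, 0.459 and 1.12 CPM in Patellar and 70.6, 72.6, 55.4 and 31.3 CPM in Flexor (log2 fold change -6.30 ± 0.40 SE, adjusted p = 1.25e-05). Grem1 and Chrdl1 were not called with muscle as covariate.

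Of 16 IGF genes 5 were higher and 1 lower (6 and 2 without Patellar replicate 3). Igf1, a growth factor made by tendon fibroblasts among other cells, stood at 428, 408, 288 and 374 CPM in Patellar and 70.7, 64.3, 126 and 59.0 CPM in Flexor (log2 fold change 2.23 ± 0.26 SE, adjusted p = 1.96e-04). Igfbp7, a secreted binding protein, stood at 496, 662, 600.3 and 1126 CPM in Patellar and 113, 112, 107 and 91.1 CPM in Flexor (log2 fold change 2.77 ± 0.26 SE, adjusted p = 6.23e-05). Libraries did not overlap in either gene. Of 22 FGF genes 6 were higher and 6 lower (7 and 5 without Patellar replicate 3). The intracellular FGF homologues split, with Fgf14 at 3.47 ± 0.35 and Fgf13 at -2.40 ± 0.25. Of 13 hedgehog genes 2 were higher and 5 lower (3 and 4 without Patellar replicate 3, and 2 lower without Flexor replicate 1, 2 or 4). Smo, the signal transducer, was higher by 1.82 ± 0.21, and its inhibiting receptor Ptch1, itself a pathway target, was lower by a log2 fold change of -1.197 ± 0.21. Smo and Ptch1 were not called with muscle as covariate.

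Genes of mechanosensing were higher in 11 of 22 and lower in 3 (10 and 1 without Patellar replicate 3, and 1 lower without Flexor replicate 1, 2 or 3). Piezo2, a stretch-gated channel best known from touch neurons, stood at 79.5, 57.1, 66.2 and 102 CPM in Patellar and 5.58, 4.24, 4.04 and 4.28 CPM in Flexor (log2 fold change 4.07 ± 0.22 SE, adjusted p = 7.88e-06). Piezo1, its relative that senses load in tenocytes, stood at 85.6, 70.8, 85.3 and 78.8 CPM in Patellar and 27.8, 27.1, 23.4 and 28.7 CPM in Flexor (log2 fold change 1.58 ± 0.12 SE, adjusted p = 2.65e-05). Every Patellar library exceeded every Flexor library in both, and with muscle as covariate the log2 fold changes were 4.91 and 1.80 (adjusted p = 9.27e-04 and 0.00912, edgeR). Axon guidance genes were called in both directions, 13 higher and 10 lower of 40 (13 and 10 without Patellar replicate 3). Sema4d was lower by a log2 fold change of -2.64 ± 0.24 and Robo1, a Slit receptor, by -2.43 ± 0.39, while Epha7 was higher by 1.76 ± 0.28. Sema4d was not called with muscle as covariate.

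Skeletal muscle RNA was far lower in Patellar. The 50 muscle markers were all lower, with a median log2 fold change of -4.34, and 50 were lower without Patellar replicate 3. Their share of counts was 1.19, 0.0857, 0.117 and 0.436 percent in Patellar replicates 1 to 4 and 14.9, 12.6, 11.7 and 10.6 percent in Flexor (exact permutation test of 70 assignments, two-sided p = 0.0286, adjusted p = 0.0396 over 18 lists). Shares of 13 of the 18 lists passed in all, and 0 passed after adjustment without any 1 library or with rRNA-like genes left out of the total (exact permutation test, smallest adjusted p of 0.0514 and 0.0540). A p of 0.0286 is the smallest this permutation test can give, also with 1 library left out. Passing after adjustment therefore depends on how many lists reach it. Without any 1 library the mean muscle share stayed at 0.213 to 0.582 percent in Patellar and 11.6 to 13.1 percent in Flexor. By count, 0 of the 50 markers were at 0 in all libraries of a tendon. Patellar replicate 1 had the largest muscle share of its group. Acta1, the actin of the sarcomere, stood at 3051, 127, 328 and 876 CPM in Patellar and 24068, 18812, 16817 and 17415 CPM in Flexor (log2 fold change -4.14 ± 0.87 SE, adjusted p = 0.00428). Acta1 was not called with muscle as covariate, but it is part of that covariate, so this fit cannot test it.

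Genes of fast and slow muscle fibres are given apart, and the difference between the lists was not tested. Of 16 fast fibre isoforms all 16 were lower, with a median of -4.84, and 16 were lower without Patellar replicate 3. Myh4, the fastest myosin heavy chain, stood at 238, 30.1, 75.1 and 108.2 CPM in Patellar and 7041, 12204, 11190.3 and 5654 CPM in Flexor (log2 fold change -6.32 ± 0.68 SE, adjusted p = 1.24e-04), and Myh1 at 249.01, 25.5, 45.2 and 66.2 CPM in Patellar and 9850.5, 7406, 6698 and 6398 CPM in Flexor (log2 fold change -6.30 ± 0.76 SE, adjusted p = 2.32e-04). Myh2, of the less fast fibres, and Atp2a1, the fast calcium pump, were lower by log2 fold changes of -4.29 ± 1.09 and -5.83 ± 0.71. Of 15 slow fibre isoforms 5 were lower and 2 higher, with a median of -0.44 (3 and 4 higher and lower without Patellar replicate 3, 1 and 9 without Patellar replicate 1). Myh7, the slow myosin heavy chain, stood at 218, 11.4, 23.9 and 26.8 CPM in Patellar and 23.9, 7.51, 8.23 and 7.80 CPM in Flexor (log2 fold change 2.56 ± 0.89 SE, adjusted p = 0.0432). Patellar replicate 1 alone held most of the Myh7 signal of its group. Without it the log2 fold change was 0.79 and was not called (adjusted p = 0.211, edgeR), nor was it called without Flexor replicate 2, 3 or 4. Atp2a2, the slow calcium pump, was higher by 1.22 ± 0.29 (adjusted p = 0.00818), and without Patellar replicate 1 by 0.81 (adjusted p = 0.00379, edgeR). With the muscle marker mean as covariate 9 slow isoforms were called higher and 3 fast isoforms lower, and Myh2 was not called. Most fast isoforms, Myh2 among them, are part of that mean, so these results cannot compare the fibre types.

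**Figure D4:**
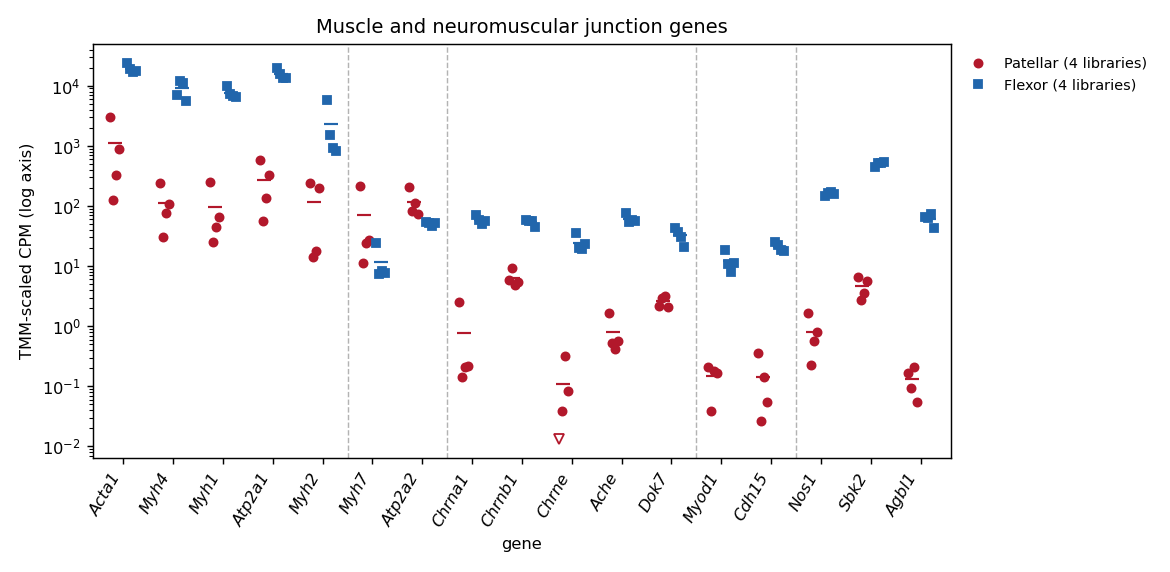
TMM-scaled CPM (log axis) of muscle and other genes in 4 Patellar (red circles) and 4 Flexor (blue squares) libraries. Bars mark means, and open triangles mark libraries with 0 counts. Dashed lines separate contractile and fast, slow, junction, myogenic and other genes. All genes but Myh7 and Atp2a2 lie lower in Patellar, and Patellar replicate 1 lies highest of its group for most.

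The nerve-muscle synapse gave some of the widest differences. Of 15 neuromuscular junction genes 13 were lower, with a median of -3.11 (also 13 without Patellar replicate 3, while 1 was higher without Patellar replicate 1). Chrne, the adult epsilon subunit of the acetylcholine receptor, stood at 0, 0.0396, 0.318 and 0.0822 CPM in Patellar and 35.3, 19.6, 19.4 and 23.3 CPM in Flexor (log2 fold change -8.08 ± 0.68 SE, adjusted p = 3.91e-05). The alpha subunit gene Chrna1, named after its values were seen, stood at 2.56, 0.145, 0.212 and 0.219 CPM in Patellar and 69.6, 58.0, 50.3 and 55.6 CPM in Flexor (log2 fold change -6.21 ± 0.85 SE, adjusted p = 4.47e-04), and the beta subunit gene Chrnb1 at 5.91, 9.15, 4.77 and 5.54 CPM in Patellar and 58.2, 56.9, 55.3 and 45.1 CPM in Flexor (log2 fold change -3.08 ± 0.22 SE, adjusted p = 1.82e-05). Ache, the enzyme that ends each signal, stood at 1.67, 0.528, 0.424 and 0.576 CPM in Patellar and 76.5, 54.0, 58.0 and 56.8 CPM in Flexor (log2 fold change -6.25 ± 0.43 SE, adjusted p = 1.52e-05). Flexor libraries lay above Patellar libraries for all 4, and Patellar replicate 1 was the highest of its group for Chrna1 and Ache. Dok7, which activates the receptor kinase of the synapse, was lower by a log2 fold change of -3.66 ± 0.27. Junction genes called higher and lower with muscle as covariate numbered 0 and 5. Over the 16-library scaling Chrna1 stood at 3.34 ± 1.69 CPM in Supraspinatus and 16.5 ± 8.14 CPM in Achilles. Chrna1 was not called with muscle as covariate.

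The promoters of the 3 receptor subunits are shown because they are the regulatory sequences of genes that differed together. Each is the 150 bases before the start of the gene, 5′ to 3′ on the gene's strand, from RefSeq on GRCm38.p6. Capitals mark E-boxes (CANNTG, the motif of basic helix-loop-helix factors, a class that includes MyoD and Scx) and the N-box (CCGGAA or its reverse complement, known from synaptic genes).
Chrna1 (chr2:73580339-73580488, minus strand): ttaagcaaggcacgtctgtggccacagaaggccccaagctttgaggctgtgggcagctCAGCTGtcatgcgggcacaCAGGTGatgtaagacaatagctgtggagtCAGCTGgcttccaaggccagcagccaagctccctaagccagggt
Chrnb1 (chr11:69795938-69796087, minus strand): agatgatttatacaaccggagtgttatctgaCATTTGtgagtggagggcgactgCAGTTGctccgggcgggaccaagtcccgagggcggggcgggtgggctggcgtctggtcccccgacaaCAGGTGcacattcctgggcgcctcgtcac
Chrne (chr11:70619195-70619344, minus strand): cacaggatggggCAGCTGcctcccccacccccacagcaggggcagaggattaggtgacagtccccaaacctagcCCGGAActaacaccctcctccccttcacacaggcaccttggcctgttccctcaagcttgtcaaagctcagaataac
The stretch holds 3 E-boxes in Chrna1, 3 in Chrnb1 and 1 in Chrne, and the N-box in Chrne. Over the 250 bases before the start, 66.2% of all 32851 promoters of the table held an E-box on either strand and 12.03% an N-box. For the junction list, 10 of 15 genes had an entry, and 10 of their 13 promoters held an E-box and 1 an N-box. A match is a description of the letters and was not tied to binding here.

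Myogenic factors and satellite cell genes were lower in 15 of 18, also without Patellar replicate 3. Myod1, which commits cells to muscle, stood at 0.211, 0.0396, 0.177 and 0.164 CPM in Patellar and 18.2, 10.6, 8.04 and 11.2 CPM in Flexor (log2 fold change -6.43 ± 0.51 SE, adjusted p = 3.24e-05), and Cdh15, a cadherin of satellite cells, at 0.352, 0.0264, 0.141 and 0.0548 CPM in Patellar and 25.3, 22.5, 18.3 and 17.7 CPM in Flexor (log2 fold change -7.26 ± 0.60 SE, adjusted p = 3.49e-05). Pax7, which marks the stem cells of muscle, was low in both and not called (log2 fold change -2.999 ± 1.17 SE, adjusted p = 0.064), except without Patellar replicate 1, the only Patellar library in which it was counted. Genes outside the lists that were named as lowest in Patellar included several of muscle. Nos1, the neuronal nitric oxide synthase bound to the muscle membrane, stood at 1.64, 0.224, 0.565 and 0.795 CPM in Patellar and 148, 165, 169 and 157 CPM in Flexor (log2 fold change -7.66 ± 0.53 SE, adjusted p = 1.56e-05). Sbk2, a kinase gene, stood at 6.59, 2.74, 3.53 and 5.73 CPM in Patellar and 453, 513, 518 and 549 CPM in Flexor (log2 fold change -6.77 ± 0.32 SE, adjusted p = 5.54e-06), and Agbl1, a deglutamylase, at 0.164, 0.0923, 0.212 and 0.0548 CPM in Patellar and 65.0, 63.0, 73.0 and 42.3 CPM in Flexor (log2 fold change -8.93 ± 0.35 SE, adjusted p = 1.84e-06). With muscle as covariate Nos1, Sbk2 and Agbl1 stood at -4.86, -5.29 and -8.22 (adjusted p = 0.00392, 8.61e-04 and 0.0049, edgeR). Over the 16-library scaling Nos1, Sbk2 and Agbl1 had means of 198, 153 and 4.51 CPM in Supraspinatus, against 159, 507 and 60.7 CPM in Flexor. A Flexor level of at least 2 times Supraspinatus was part of the rule for Sbk2 and Agbl1. The cell source of Sbk2 and Agbl1 was not tested. Myh8, a perinatal myosin, and Myl10 were lower by log2 fold changes of -6.28 ± 0.88 and -7.13 ± 0.84. Myod1, Myh8 and Myl10 were not called with muscle as covariate.

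Most genes of glycolysis and respiration were lower in Patellar. Glycolysis genes were lower in 16 of 22, also without Patellar replicate 3, with a median of -2.25. Gpi1, an early glycolytic isomerase, stood at 114, 82.4, 86.5 and 82.1 CPM in Patellar and 543, 573, 504 and 496 CPM in Flexor (log2 fold change -2.54 ± 0.15 SE, adjusted p = 1.03e-05). Respiratory chain genes were lower in 40 of 42 and higher in 1, with a median of -1.52 (1 and 39 without Patellar replicate 3), and Sdha, of complex II, stood at 217, 260.5, 253 and 230.1 CPM in Patellar and 871, 851, 842 and 774 CPM in Flexor (log2 fold change -1.80 ± 0.13 SE, adjusted p = 1.83e-05). With muscle as covariate the counts were 0 and 9 for glycolysis and 1 and 6 for the respiratory chain. Fatty acid oxidation genes were mixed, 6 higher and 10 lower of 28 (7 and 10 without Patellar replicate 3), with Ppargc1a, the coactivator of mitochondrial genes, lower by a log2 fold change of -2.61 ± 0.26. Of 13 mitochondrially encoded mRNAs 3 were called higher, 8 were without Patellar replicate 2, and the calls were lost without any other single library.

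Fat RNA was higher in Patellar. All 24 adipocyte markers were higher, with a median of 3.46, and 21 were called higher without Patellar replicate 3. Their share of counts was 1.47, 4.58, 2.66 and 2.22 percent in Patellar and 0.654, 0.538, 0.423 and 0.452 percent in Flexor (exact permutation test, p = 0.0286, adjusted p = 0.0396). Adipoq, the hormone adiponectin, stood at 396, 1188, 942 and 648 CPM in Patellar and 57.3, 53.7, 40.1 and 37.3 CPM in Flexor (log2 fold change 4.07 ± 0.35 SE, adjusted p = 4.44e-05). Fabp4, the fatty acid carrier of adipocytes, stood at 2389.9, 4309, 3665 and 2845 CPM in Patellar and 210.0, 225, 157 and 145 CPM in Flexor (log2 fold change 4.16 ± 0.27 SE, adjusted p = 1.25e-05), and Lep, the satiety hormone leptin, at 84.5, 256, 268 and 215 CPM in Patellar and 10.9, 9.25, 4.22 and 4.94 CPM in Flexor (log2 fold change 4.81 ± 0.46 SE, adjusted p = 7.43e-05). Adrb3 (ENSMUSG00000031489, chr8:27225776-27250616), the receptor through which noradrenaline triggers fat breakdown, was the fat-related gene with the widest named difference, at 27.4, 132, 68.7 and 36.4 CPM in Patellar and 0.281, 0.261, 0.188 and 0.0531 CPM in Flexor (log2 fold change 8.40 ± 0.70 SE, adjusted p = 3.92e-05). No Patellar library overlapped a Flexor library in these 4, which the naming rule had required for Adrb3. Under the muscle covariate 8 and 0 adipocyte markers were called higher and lower. Cfd, the complement factor that fat cells secrete as adipsin, stood at 4409.7, 11402, 8472 and 5607 CPM in Patellar and 433, 451, 327 and 236 CPM in Flexor (log2 fold change 4.37 ± 0.38 SE, adjusted p = 4.44e-05). Lep was not called with muscle as covariate.

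Nerve markers and the pericyte and smooth muscle markers were mostly lower in Patellar. Of 20 Schwann cell and nerve markers 17 were lower, with a median of -2.63 (18 without Patellar replicate 3), and they took 0.0688% ± 0.0194 of counts in Patellar and 0.396% ± 0.162 in Flexor (SD, n = 4). Mbp, myelin basic protein, stood at 107, 88.3, 90.3 and 52.4 CPM in Patellar and 749, 713, 359 and 1084 CPM in Flexor (log2 fold change -3.10 ± 0.35 SE, adjusted p = 1.60e-04). Of 9 neuron markers 6 were lower (1 and 7 higher and lower without Patellar replicate 3, with 1 higher also without Patellar replicate 2). Pericyte and smooth muscle markers were lower in 10 of 17 and higher in 1 (1 and 12 without Patellar replicate 3, and 0 higher without Flexor replicate 2 or 4 or Patellar replicate 4), and took 0.155% ± 0.0266 of counts in Patellar and 0.689% ± 0.112 in Flexor. The pericyte and smooth muscle list includes Des, which is also a skeletal muscle marker, and all of those were lower. The part of skeletal muscle RNA in this count and share was not tested, so they cannot be read as vessel wall alone. Mbp was not called with muscle as covariate.

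Endothelial markers were higher in 5 of 20, a share close to the background (also 5 without Patellar replicate 3, 3 higher without Flexor replicate 1 or 2, 3 lower without Patellar replicate 2). Pecam1, the endothelial adhesion molecule, was not called (log2 fold change -0.75 ± 0.41 SE, adjusted p = 0.169). With muscle as covariate the endothelial counts were 0 and 12, so the direction depends on that setting. Lymphatic markers took 0.0136% ± 0.0107 of counts in Patellar and 0.0146% ± 0.00321 in Flexor, with overlap. Without Patellar replicate 2 their Patellar mean was 0.00869%, and the order of the means turned without Patellar replicate 1, Patellar replicate 4 or Flexor replicate 3. Of 11 synovial lining markers 4 were lower and 1 higher. Red blood cell markers were higher in 6 of 7 (also 6 without Patellar replicate 3) and took 0.0754% ± 0.0488 of counts in Patellar and 0.00739% ± 0.00301 in Flexor. Hba-a1, an alpha globin gene with a near-identical copy, stood at 139, 87.1, 341 and 78.8 CPM in Patellar and 16.6, 10.96, 16.1 and 6.48 CPM in Flexor (log2 fold change 3.69 ± 0.53 SE, adjusted p = 5.83e-04). Hba-a1 was not called with muscle as covariate.

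Shares of the main resident immune cells overlapped between tendons. Macrophage markers took 0.114% ± 0.0517 of counts in Patellar and 0.146% ± 0.0514 in Flexor, and mast cell markers 0.00489% ± 0.00217 of counts in Patellar and 0.00437% ± 0.00163 in Flexor. T, B and NK cell markers took 5.63e-04% ± 3.17e-04 of counts in Patellar and 1.91e-04% ± 3.60e-05 in Flexor, and neutrophil markers 0.00134% ± 8.39e-04 of counts in Patellar and 0.00340% ± 7.64e-04 in Flexor. The lymphocyte share was higher and the neutrophil share lower in every Patellar library (adjusted p = 0.0396 for each, exact permutation test), at very low levels. With rRNA-like genes left out of the total the neutrophil share had an exact permutation p of 0.143. By edgeR 2 of 7 neutrophil markers were called higher and 1 lower, with a median of 1.40, the opposite sign to the share. The neutrophil counts were 3 and 1 without Patellar replicate 3, and 2 were lower without Patellar replicate 1 or 2. The mean mast cell share turned lower in Patellar without Patellar replicate 2. Interferon response genes were higher in 14 of 26, with a median of 0.89 (13 without Patellar replicate 3). The 1 lower gene was not called without Flexor replicate 1, 2 or 3 or Patellar replicate 1 or 2. Psmb8, an immunoproteasome subunit, stood at 23.0, 38.3, 47.5 and 26.5 CPM in Patellar and 8.61, 8.36, 10.97 and 11.6 CPM in Flexor (log2 fold change 1.78 ± 0.25 SE, adjusted p = 4.96e-04), and Ifi27 at 207, 245, 199.9 and 207 CPM in Patellar and 58.9, 66.7, 74.5 and 81.6 CPM in Flexor (log2 fold change 1.61 ± 0.14 SE, adjusted p = 4.41e-05). Under the muscle covariate 1 and 0 interferon genes were called higher and lower. Of 29 complement and chemokine genes 9 were higher and 5 lower, with 2 lower without Flexor replicate 1 or 3 and 3 lower without Patellar replicate 1, 2 or 4. Cxcl9, a chemokine induced by interferon, was higher by 5.31 ± 0.45. Psmb8 was not called with muscle as covariate.

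**Figure D5:**
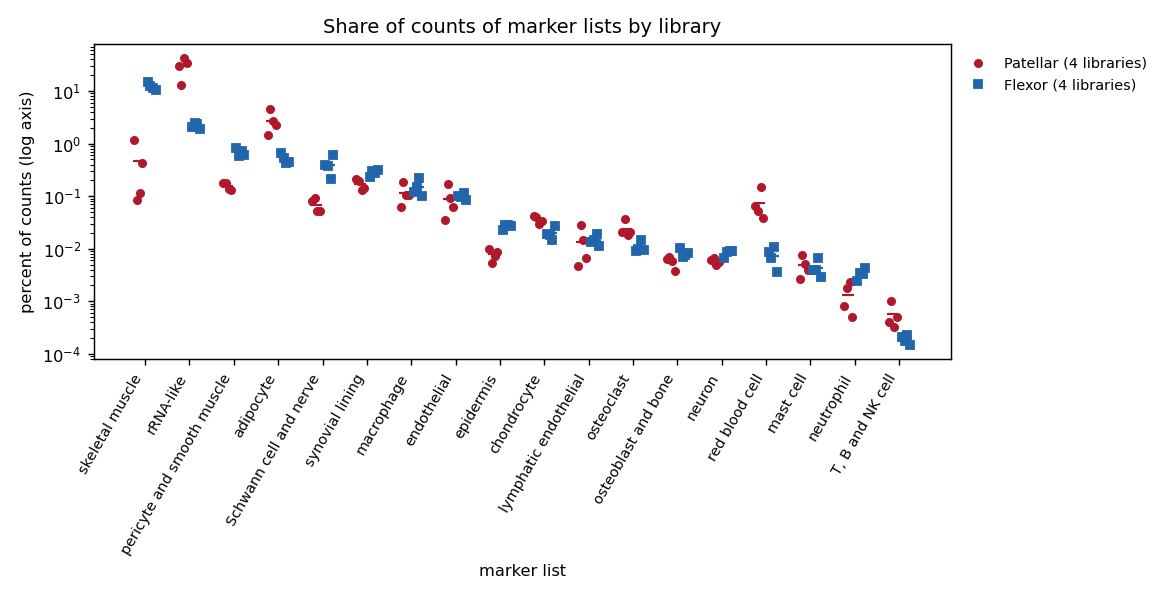
Percent of each library's counts (log axis) in genes of the marker lists, for 4 Patellar (red circles) and 4 Flexor (blue squares) libraries with a bar at each mean, ordered by the Flexor mean. Skeletal muscle and rRNA-like shares differ most, and macrophage, endothelial, lymphatic and mast cell shares overlap.

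Skeletal markers took small shares. Chondrocyte markers took 0.0364% ± 0.00591 of counts in Patellar and 0.0199% ± 0.00518 in Flexor, and osteoclast markers 0.0242% ± 0.00839 of counts in Patellar and 0.0107% ± 0.00255 in Flexor. Both were higher in every Patellar library (adjusted p = 0.0396 for each, exact permutation test). However, 4 of 13 chondrocyte markers were called lower and 2 higher by edgeR (5 and 2 without Patellar replicate 3). Most of the Patellar chondrocyte share came from Col11a2, given above, with a mean of 276 CPM in Patellar and 30.6 CPM in Flexor. The share without Col11a2 was not tested, so it cannot be read as a difference of chondrocyte RNA. Osteoblast and bone markers overlapped (adjusted p = 0.0735, exact permutation test), at 0.00574% ± 0.00142 of counts in Patellar and 0.00832% ± 0.00145 in Flexor. With rRNA-like genes left out of the total their means were 0.00820% and 0.00851% (exact permutation p = 0.8). Epidermis markers took 0.00778% ± 0.00199 of counts in Patellar and 0.0266% ± 0.00269 in Flexor, lower in every Patellar library, although 2 of 15 epidermis markers were called higher and 3 lower by edgeR, with a median of 0.07.

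Genes of growth and daily rhythm were called in both directions. Cell cycle genes were higher in 9 of 27 and lower in 2 (14 and 2 without Patellar replicate 3, 4 higher without Flexor replicate 2, 5 higher without Flexor replicate 4, 4 lower without Patellar replicate 1, and 1 lower without any Flexor library or Patellar replicate 2 or 4). Mki67, a marker of dividing cells, stood at 10.6, 6.29, 2.19 and 7.07 CPM in Patellar and 1.33, 1.10, 1.31 and 0.849 CPM in Flexor (log2 fold change 2.51 ± 0.44 SE, adjusted p = 0.0017). Ribosomal protein genes were higher in 17 of 53, with 9 higher without Flexor replicate 1, 8 without Flexor replicate 4, 12 without Patellar replicate 3 and 26 without Patellar replicate 2. Rpl39l, a ribosomal protein paralog, stood apart at 17.4, 12.1, 17.1 and 13.3 CPM in Patellar and 0.174, 0.341, 0.188 and 0.1503 CPM in Flexor (log2 fold change 6.12 ± 0.34 SE, adjusted p = 9.19e-06). Circadian clock genes were lower in 9 of 19 and higher in 2 (2 and 8 without Patellar replicate 3, 5 lower without Flexor replicate 1). Per2 stood at 17.7, 14.4, 8.80 and 26.4 CPM in Patellar and 74.9, 64.3, 87.1 and 57.6 CPM in Flexor (log2 fold change -2.08 ± 0.30 SE, adjusted p = 6.29e-04), and Per1 was lower by a log2 fold change of -1.14 ± 0.18. Nr1d1, another core clock gene, was not called (log2 fold change -0.22 ± 0.22 SE, adjusted p = 0.45). The sources used here give no time of day for tissue collection. Per2 and Per1 were not called with muscle as covariate.

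Immediate-early genes, which respond within minutes to handling or load, were called in both directions, 6 higher and 6 lower of 26 (7 and 7 without Patellar replicate 3). Jund stood at 56.6, 43.1, 57.6 and 80.8 CPM in Patellar and 7.47, 7.69, 6.40 and 7.30 CPM in Flexor (log2 fold change 3.04 ± 0.20 SE, adjusted p = 1.25e-05), and Klf2, a flow-responsive factor, at 36.4, 52.1, 77.1 and 87.8 CPM in Patellar and 11.2, 11.01, 10.9 and 11.4 CPM in Flexor (log2 fold change 2.51 ± 0.26 SE, adjusted p = 9.93e-05), while Fos was not called (log2 fold change -0.64 ± 0.37 SE, adjusted p = 0.196). Heat shock and unfolded protein genes were lower in 7 of 24 and higher in 2, with 4 higher without Patellar replicate 4. Of 13 metallothionein and hypoxia genes 3 were higher and 4 lower (3 and 5 without Patellar replicate 3). Only 2 of them were lower without Flexor replicate 1, 2 or 3 or Patellar replicate 4. Mt3 was higher by 3.30 ± 0.39, Mt1 and Mt2 were not called (0.36 ± 0.38 and 0.87 ± 0.40), and Egln3, a prolyl hydroxylase that senses oxygen, was lower by a log2 fold change of -4.16 ± 0.41. Klf2 was not called with muscle as covariate.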

How the data were processed

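RNA counts of 4 Patellar and 4 Flexor libraries were compared. RNA was column-purified with DNase treatment and made into Illumina libraries, per the labels' protocols. The authors deposited whole-number read counts for 41204 genes, not normalized. The submitters' processing notes name FastQC, HISAT2, edgeR and the mm10 build. The sources used here do not give the counter, its strand setting or the annotation, so overlapping, antisense and near-identical genes are uncertain. The authors' deposited table of log2 fold changes, mean log2 CPM, p-values and FDR values was used only for counts of calls.

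Counts were fitted with edgeR 4.0.16 in R 4.3.3 (filterByExpr by tendon, TMM, robust quasi-likelihood, 8 libraries, no covariate), two-sided, with Benjamini-Hochberg adjustment over all 21463 genes. Each standard error (SE) is the size of the log2 change over the root of its F statistic. Shares of counts in 18 marker lists were compared by exact permutation of 70 assignments. Counts of 0 were read as up to 3 counts over a tendon's 4 libraries, which covers counting error only. Positions are GENCODE gene spans on GRCm38 (mm10). No column of the count table was left unused.

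The members, 41 gene lists and 18 marker lists were chosen with earlier results of these data known. Genes were named by rule: the 12 highest and 12 lowest log2 fold changes at a mean of at least 10 CPM in the higher tendon without overlap, 12 lower genes with Flexor at least 2 times Supraspinatus, up to 4 called members per list by adjusted p, and a fixed panel, leaving marker genes and unnamed genes out of the first parts. Names outside it were chosen after their values were seen, as were those that complete a count. Medians of lists were the same with genes at 0 counts set at their bound. Other settings were DESeq2 1.42.0, limma 3.58.1 with voom, other scalings and filters, a replicate block, all 16 libraries, genes left out, a muscle covariate and each library left out. One member of the fixed panel is not reported here. Figures were drawn with matplotlib.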

Additional observations from a re-analysis of the deposited data

Results flagged for a closer look

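In 28 of 324 groups of 4 libraries, 1 library stood further from the rest than Dixon's critical value allows. Chance alone flags about 1 in 20 groups, and genes with few counts or a shared tissue are not independent. Flexor replicate 1 stood apart for Col11a2 at 41.7 CPM, Myh2 at 5868 CPM, Myh7 at 23.9 CPM and Piezo2 at 5.58 CPM. Flexor replicate 2 stood apart for Lhx9 at 0.983 CPM and Per1 at 135 CPM. Flexor replicate 3 stood apart for Dkk2 at 45.7 CPM, Fgf14 at 2.87 CPM and Nr1d1 at 214 CPM. Flexor replicate 4 stood apart for Frzb at 279 CPM, Grem1 at 114 CPM and Ogn at 173 CPM. Patellar replicate 1 stood apart for Ache at 1.67 CPM, Alpk2 at 3.78 CPM, Chrna1 at 2.56 CPM, Egln3 at 10.3 CPM, Gpi1 at 114 CPM, Grem1 at 0.328 CPM, Myh7 at 218 CPM, Pax7 at 0.328 CPM and Prg4 at 2105 CPM. Patellar replicate 2 stood apart for Ifi27 at 245 CPM, Robo1 at 15.5 CPM and the osteoclast share at 0.0366%. Patellar replicate 3 stood apart for Hoxd12 at 0.0353 CPM. Patellar replicate 4 stood apart for Mt3 at 216 CPM, Myl10 at 0.439 CPM and Timp2 at 1759 CPM. Myh7 is the named gene whose call rests on such a library, as given above, and Patellar replicate 1 also held the largest muscle marker share of its group. The part of that share in its values was not tested.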

How the results depend on the processing

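Without the covariate, genes higher in Patellar than in Flexor numbered 3038 to 5737 over the other settings. The genes lower in Patellar than in Flexor fell to 2928 at a mean of at least 5 CPM, where fewer genes were tested. In a separate setting, with the usual filter and a change of at least 2-fold required, they fell to 2845. With muscle as covariate 1183 genes were higher and 1119 lower. Of the calls made without it, 1837 were called in the same direction and 10 in the opposite direction. The Acta1 log2 fold change turned to 0.53 (not called) and the Myh2 log2 fold change to 1.92, but both genes are part of the covariate. Leaving out each library gave 3490 to 5203 higher and 3664 to 5449 lower genes. Of 18 marker shares 13 passed in the main comparison, 0 when rRNA-like genes were left out of the total (smallest adjusted p = 0.0540, exact permutation, 9 of 17 at p = 0.0286) and 0 without each library in turn. These losses depend on how many lists reach 0.0286, the smallest p that the exact permutation test can give. The endothelial, lymphatic and macrophage shares changed direction when rRNA-like genes were left out, the endothelial share also without Patellar replicate 1 or 4, the lymphatic share without Patellar replicate 1 or 4 or Flexor replicate 3, and the mast cell share without Patellar replicate 2. The replicate block gave 3418 higher and 4098 lower genes. Same-numbered libraries deviated from their group means with correlations of -0.05 to 0.03, and differently numbered ones with correlations of -0.09 to 0.07. These correlations cannot show whether equal numbers mark the same animal, since depth and rRNA-like share also varied between Patellar libraries. The labels do not say, so the numbers were not treated as pairs. Upper-quartile scaling moved the median of all genes by 0.11, voom by -0.11 and the block by -0.11. Of 3001 values for 144 named genes 2928 kept their side of the threshold, and among these the called genes also kept their direction. Genes not called in either fit were counted here whatever their direction. The muscle covariate ended the call of 38 genes that kept their direction, and of 2 more, Acta1 and Myh2, that turned direction. Depth limits genes near 0 in Patellar, where a count of 0 allows up to 0.0164 CPM.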

Other observations

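Further genes of the naming rule, in no list, differed as widely. Krt75, a keratin of the hair follicle, stood at 21.3, 5.74, 26.1 and 16.4 CPM in Patellar and 0.0484, 0.0201, 0.107 and 0.0177 CPM in Flexor (log2 fold change 8.43 ± 0.70 SE, adjusted p = 3.77e-05). Prtn3, a neutrophil protease gene, stood at 4.504, 17.3, 19.0 and 8.94 CPM in Patellar and 0.0969, 0.0602, 0.134 and 0.0884 CPM in Flexor (log2 fold change 7.002 ± 0.57 SE, adjusted p = 3.40e-05). Mettl21e, a methyltransferase gene of muscle, stood at 0.211, 0.0528, 0.141 and 0.164 CPM in Patellar and 20.5, 46.7, 47.5 and 8.70 CPM in Flexor (log2 fold change -7.85 ± 0.71 SE, adjusted p = 5.79e-05). Scn4a, the sodium channel of skeletal muscle, stood at 1.85, 0.607, 1.13 and 0.932 CPM in Patellar and 193, 141, 112 and 86.1 CPM in Flexor (log2 fold change -6.90 ± 0.42 SE, adjusted p = 1.16e-05). Alpk2, an alpha kinase gene, stood at 3.78, 0.237, 0.530 and 0.521 CPM in Patellar and 159, 161, 129.7 and 61.4 CPM in Flexor (log2 fold change -6.66 ± 0.87 SE, adjusted p = 3.44e-04). Patellar and Flexor libraries did not overlap in any of these 5 genes, which the naming rule had required. Mettl21e and Alpk2 were not called with muscle as covariate.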
